A study of Mus musculus with 6 samples.

Results

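The genes of cholesterol synthesis, uptake and export were examined in RNA sequencing of whole mouse ovaries. The set holds 33 genes picked by symbol from a list, all 33 found once each among the 47205 genes of the deposited table. By role, 19 encode synthesis enzymes, 5 control the sterol-sensing SREBP pathway, and 9 serve uptake, intracellular handling and export. Ovaries were taken at 9 days post partum from 3 wild-type (WT) and 3 SRSF1 cKO samples, the latter lacking the splicing factor gene Srsf1 in their granulosa cells, which surround each oocyte. The sources used here give no Cre driver, mouse strain, pooling of animals or origin of the replicates, so p-values measure only the spread between these libraries, which may be technical. Reads recovered from the deposited values summed to 16.8 to 18.7 M over the genes of each library.

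Cells make cholesterol from acetyl-CoA through mevalonate, squalene and lanosterol. When membrane sterol is low, SCAP escorts the transcription factor SREBP2 from the endoplasmic reticulum to the Golgi, where it is cut and released to switch on the synthesis genes, while INSIG proteins hold SCAP back when sterol is plentiful. The nuclear receptors LXRα and LXRβ sense oxysterols and switch on the exporters ABCA1 and ABCG1. In the ovary, granulosa cells supply cholesterol to the oocyte, which makes little of its own, and steroid-producing cells use it as the precursor of all steroid hormones.

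Values are given as FPKM, fragments for each kilobase of a gene and scaled for each library, so that levels can be compared between genes. The targeted gene, Srsf1, stood at 39.9, 49.6 and 46.3 FPKM in WT replicates 1, 2 and 3 and at 20.3, 26.9 and 21.4 FPKM in cKO, without overlap (limma adjusted p = 0.32, log2 fold change -0.96 with SE 0.134). The deletion is in 1 cell type of the whole ovary, and Srsf1 itself did not pass the test. Replicate 2 of cKO stood apart: it was the highest or lowest of its group in 30 of the 33 members (90.9%), against 78% of all genes tested. The members it held highest had a median gene length of 3401 bases and those it held lowest 4704. Over all genes tested these medians were 2526 and 4448 bases. Other libraries leaned by length too. Over all genes tested, WT replicates 1 (2820 and 3997 bases) and 3 (2759.5 and 4182.5 bases) leaned the same way. WT replicate 2 (4972 and 2230 bases) and cKO replicate 3 (4760 and 2550.5 bases) leaned the other way. WT replicate 1 was the lowest WT library in 19 of the 33, against 33% of all genes. It was the highest or lowest WT library in 28 of the 33 (84.8%), against 64.3% of all genes tested. Whether cKO replicate 2 and WT replicate 1 differ from the others in RNA quality was not tested. Some of the results that rest on either library are given below with and without it.

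No gene of the 33 passed the test for a difference between cKO and WT. The test was limma on log2(FPKM + 1), with p-values adjusted over the 14714 genes that averaged 1 FPKM or more. Of all genes tested, 0.0204% passed an adjusted p of 0.05. The smallest adjusted p of a member was 0.453, for Hsd17b7, the sterol-arm gene described first below. At an unadjusted p under 0.05, 1 member was lower (2.7% of all genes tested were) and 0 were higher (3.64%), or 6.34% in either direction. With limma-voom on reads recovered from the FPKM, 0 passed, and 1 was lower and 1 higher at that unadjusted p. Of all 14714 genes, 912 were under it there in either direction, against 933 in the main fit. Without cKO replicate 2, 4 members were lower and 1 was higher at that unadjusted p, and without WT replicate 1 or cKO replicate 1, 3 were lower. Of all 14714 genes, 1045 were under it in either direction without cKO replicate 2. The same count was 980 without WT replicate 1 and 808 without cKO replicate 1. In 6 of 32 tested members no WT library fell inside the cKO range or the reverse, as in 12.3% of all genes tested. Of the 6 whose groups did not overlap, 5 were lower in cKO (5.89% of all genes) and 1 was higher (6.37%). Fold changes below 0 were found in 23 of the 32, against 50% of all genes tested, with a median log2 fold change of -0.10 for the members and 0.00 for all genes.

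The synthesis genes and the uptake and export genes were set side by side. Of 19 synthesis genes, 16 had a lower mean log2 value in cKO, with a median log2 fold change of -0.11. That median was -0.18 when WT replicate 1 was left out and -0.06 when WT replicate 3 was. Of 8 tested uptake and export genes, 5 had a higher mean, with a median of 0.06, but 4 of 8 did, with a median of -0.0045, once libraries were rescaled to a common total. Their median was 0.12 when WT replicate 1 was left out, 0.015 for WT replicate 3, 0.024 for cKO replicate 1 and 0.10 for cKO replicate 2. Without cKO replicate 2, 7 of the 8 had a higher mean, and 16 of the 19 synthesis genes a lower one. The synthesis count ran from 13 (without WT replicate 3) to 17 of 19 (common total) under the other settings that tested all 19. A score for each set, averaging each tested gene's log2(FPKM + 1) after subtraction of its WT mean, was -0.09, 0.01 and 0.08 for synthesis in WT replicates 1, 2 and 3 and -0.13, -0.08 and -0.16 in cKO. WT replicate 1 thus lay inside the cKO range. Averaged over the cKO libraries the synthesis score was -0.12, and -0.09 when Hsd17b7 was left out of the set. The uptake and export score was -0.02, 0.06 and -0.04 in WT and 0.15, -0.14 and 0.12 in cKO, with cKO replicate 2 below every other library. The synthesis score minus the uptake and export score was 0.17 lower in cKO than in WT on the log2 scale (SD over libraries 0.106 in WT and 0.199 in cKO), and the groups overlapped. Without cKO replicate 2 the same difference was -0.28, and it was -0.11 with WT replicate 3, cKO replicate 1 or cKO replicate 3 left out in turn, so that each of these libraries moved it by more than 1.5 times. Summed over the set, synthesis genes reached 193, 209 and 223 FPKM in WT and 190.3, 195 and 189 FPKM in cKO.

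**Figure D1:**
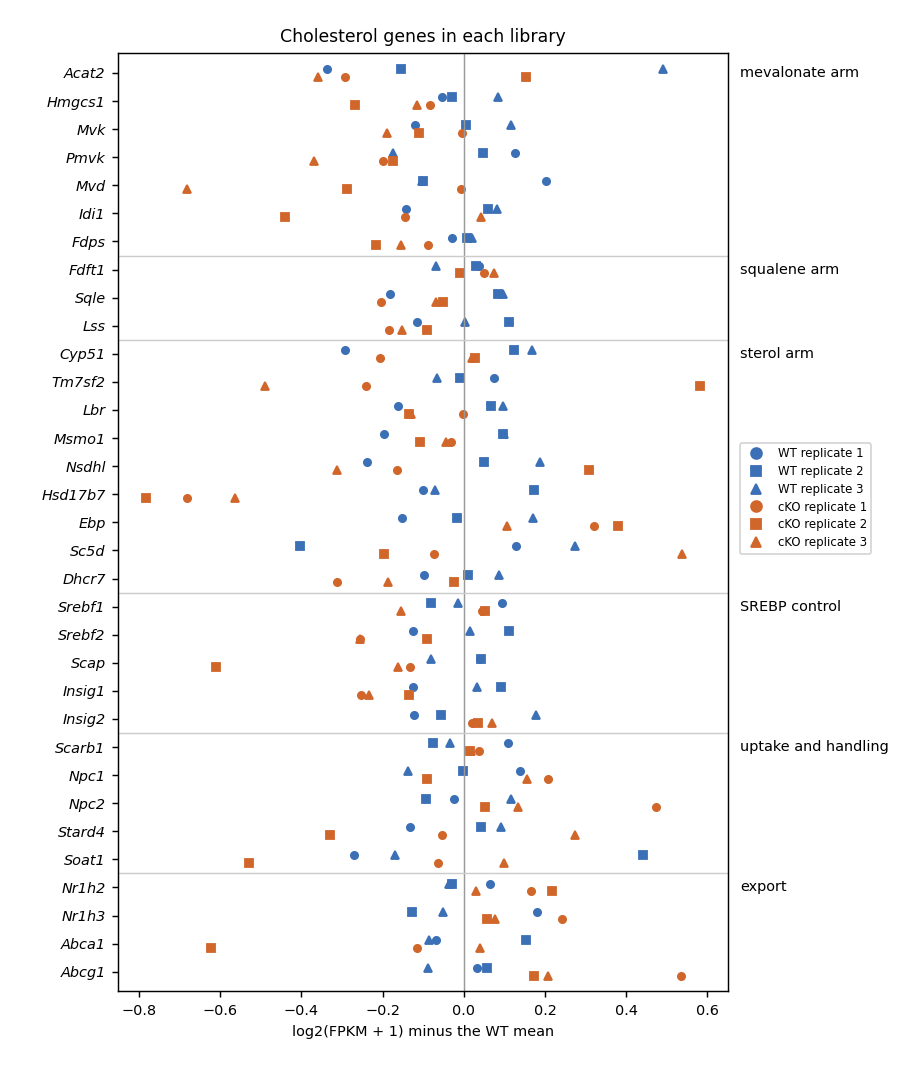
Each row is a cholesterol gene and each point a library, placed by its log2(FPKM + 1) minus the WT mean, with WT in blue above and cKO in orange below and the replicate number given by the symbol. The cKO points of Hsd17b7 lie apart to the left of the WT points, while most other genes overlap and cKO replicate 2 (squares) is often at an end of its group.

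The promoters of the non-overlapping members are shown because SREBP2 acts through short elements close to the start of its targets, beside NF-Y and Sp1. RefSeq windows (GRCm38.p6, from 250 bases before to 50 after a start) were matched by symbol for 26 of the 33 genes, and for 4 of the 6 non-overlapping members. The windows differ in build from the expression table, whose positions are GRCm39. The 250 bases before the start are printed 5′ to 3′ on the gene's strand, and capitals mark matches on either strand to TCACNCC (the core of the classical sterol element), CCAAT (the box bound by NF-Y) or GGGCGG (the GC box bound by Sp1). CCAAT on the other strand reads ATTGG, and the GC box CCGCCC. The windows are chr13:119690101-119690350 (plus strand) for Hmgcs1, chr1:169969206-169969455 (minus strand) for Hsd17b7, chr5:28071162-28071411 (plus strand) for Insig1 and chr9:110333106-110333355 (plus strand) for the second of 2 starts of Scap.
Hmgcs1: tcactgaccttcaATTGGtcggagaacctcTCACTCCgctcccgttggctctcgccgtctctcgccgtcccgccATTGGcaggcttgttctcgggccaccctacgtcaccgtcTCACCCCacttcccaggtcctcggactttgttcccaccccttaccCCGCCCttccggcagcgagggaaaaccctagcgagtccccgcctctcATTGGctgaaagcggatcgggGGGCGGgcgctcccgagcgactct
Hsd17b7: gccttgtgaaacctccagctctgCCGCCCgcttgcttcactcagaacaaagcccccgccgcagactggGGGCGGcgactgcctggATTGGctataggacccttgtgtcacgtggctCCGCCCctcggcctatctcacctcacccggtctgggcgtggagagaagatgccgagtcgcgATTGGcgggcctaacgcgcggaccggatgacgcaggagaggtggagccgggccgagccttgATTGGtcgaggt
Insig1: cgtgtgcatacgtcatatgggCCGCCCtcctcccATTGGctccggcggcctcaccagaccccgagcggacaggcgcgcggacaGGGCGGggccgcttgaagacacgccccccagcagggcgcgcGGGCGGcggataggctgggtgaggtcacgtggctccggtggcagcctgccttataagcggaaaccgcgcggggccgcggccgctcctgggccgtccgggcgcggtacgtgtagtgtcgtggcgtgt
Scap: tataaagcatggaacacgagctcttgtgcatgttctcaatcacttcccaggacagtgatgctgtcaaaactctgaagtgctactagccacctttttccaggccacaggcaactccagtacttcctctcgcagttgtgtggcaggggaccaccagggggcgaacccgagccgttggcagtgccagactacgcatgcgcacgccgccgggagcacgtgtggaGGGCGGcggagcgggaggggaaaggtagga

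The printed Hmgcs1 window held 2 matches to the sterol core, 3 to CCAAT and 2 to the GC box, and that of Hsd17b7 0, 3 and 3. Insig1 held 0, 1 and 3, and Scap 0, 0 and 1. Over the full windows of 300 bases, CCAAT was found in 15 of 16 matched synthesis genes and in 21 of all 26 matched members, against 41.1% of all genes with a window. The GC box was found in 15 of the 16 synthesis genes and in 23 of 26 members, against 38.2%. The sterol core was found in 3 of 16 synthesis genes (Hmgcs1, Acat2 and Msmo1) and in 6 of 26 members, against 17.6% of all genes. The shares over all genes cover 27025 genes with a window, whether or not they passed the expression filter. They were not matched to the members for expression or base content, so the counts do not show a trait of cholesterol genes. A match describes the letters of the window and is no measured site.

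Hsd17b7 encodes a 3-ketosteroid reductase of the sterol arm that also reduces estrone to estradiol. The gene (chromosome 1, 169777104 to 169796913, minus strand) stood at 7.28, 9.01 and 7.45 FPKM in WT replicates 1, 2 and 3 and at 4.54, 4.16 and 5.01 FPKM in cKO. All cKO libraries lay below all WT libraries, with a gap wider than the range of cKO. The means were 7.92 ± 0.956 and 4.57 ± 0.425 FPKM (SD, n = 3 each). On the log2 scale cKO minus WT was -0.68 (SE 0.117, 95% interval -0.95 to -0.40, limma adjusted p = 0.453). The exact two-sided permutation test of this gene alone gave p = 0.1, the smallest that 3 against 3 can reach. Between 455 and 932 reads lay behind each value. Under 13 other settings the log2 fold change ran from -0.78 to -0.59 and its unadjusted p was below 0.05 in 13 of 13, with adjusted p between 0.301 and 1.

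Of the mevalonate arm, 7 of 7 genes had a lower mean in cKO, and 0 passed. The arm's score was -0.05, -0.02 and 0.07 in WT and -0.12, -0.19 and -0.26 in cKO, without overlap. Hmgcs1, which makes HMG-CoA (chromosome 13, 120151887 to 120169796), stood at 31.9, 32.4 and 35.2 FPKM in WT and 31.2, 27.3 and 30.5 FPKM in cKO. The groups were parted by less than the spread within either (limma adjusted p = 0.807, log2 fold change -0.16 with SE 0.0897 and 95% interval -0.37 to 0.06). When cKO replicate 2 was left out the log2 fold change of Hmgcs1 was -0.099. Fdps, which makes farnesyl diphosphate, the branch point to sterols and prenylated proteins (chromosome 3, 89000895 to 89009274, minus strand), stood at 25.7, 26.4 and 26.6 FPKM in WT. In cKO it stood at 24.6, 22.4 and 23.5 FPKM, below each WT library (limma adjusted p = 0.798, log2 fold change -0.15 with SE 0.078 and 95% interval -0.34 to 0.03). In both genes the cKO mean stood 10.4% below the WT mean.

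The other mevalonate genes overlapped between the groups. Pmvk, the phosphomevalonate kinase, stood at 3.64, 3.40 and 2.77 FPKM in WT and 2.71, 2.77 and 2.29 FPKM in cKO, the groups meeting at 2.77 FPKM (174 reads in WT replicate 3 and 181 in cKO replicate 2). Mvd, which decarboxylates mevalonate diphosphate, averaged 4.34 and 3.31 FPKM, with cKO replicate 3 lowest at 2.31. Without cKO replicate 1 its log2 fold change was -0.48, and without cKO replicate 3 -0.15, against -0.33 with all libraries. Acat2, which condenses acetyl-CoA, averaged 12.4 ± 4.24 and 10.7 ± 2.36 FPKM (SD, n = 3 each), and its spread came from WT replicate 3 at 17.2. Without that library its log2 fold change was 0.08 against -0.17. Mvk, the mevalonate kinase, averaged 8.38 and 7.74 FPKM, and the isomerase gene Idi1 2.93 and 2.49 FPKM. The log2 fold change of Idi1 was -0.18, and -0.05 when cKO replicate 2 was left out.

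In the squalene arm the groups overlapped for all 3 genes. Sqle, the squalene epoxidase, averaged 19.9 ± 2.2 and 18.3 ± 1.11 FPKM (SD, n = 3 each), and the lanosterol synthase gene Lss 2.88 and 2.51 FPKM. Fdft1, the squalene synthase, averaged 14.4 and 14.8 FPKM, with a 95% interval of its log2 fold change from -0.15 to 0.23. Fdft1 shares 774 bases with Ctsb on the other strand, which stood at 66.5 to 99.6 FPKM, and reads in the shared bases cannot be assigned to either gene, as strandedness is not given here.

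In the sterol arm after lanosterol, 7 of 9 genes had a lower mean log2 value in cKO. The median log2 fold change of the arm was -0.06. Hsd17b7 at -0.68 lay far below the next lowest, Dhcr7 at -0.17. Ebp, the sterol isomerase, went the other way, at 5.16, 5.78 and 6.71 FPKM in WT and 7.55, 7.91 and 6.38 FPKM in cKO. Only cKO replicate 3 fell inside the WT range (limma adjusted p = 0.777, log2 fold change 0.27 with SE 0.126 and 95% interval -0.03 to 0.57). Sc5d, a sterol desaturase, was the other with a higher mean, and ranged from 6.0 FPKM in WT replicate 2 to 12.4 FPKM in cKO replicate 3. Tm7sf2, one of a pair of sterol C14 reductases, stood at 5.22, 4.87 and 4.65 FPKM in WT and 4.0, 7.85 and 3.21 FPKM in cKO. Its cKO libraries lay on both sides of WT, and without cKO replicate 2 the log2 fold change was -0.37 against -0.05. Lbr, the other C14 reductase and a nuclear membrane protein, averaged 17.7 and 16.6 FPKM.

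The remaining sterol-arm genes overlapped. Nsdhl, a sterol dehydrogenase, stood at 8.59, 10.7 and 11.9 FPKM in WT and 9.08, 13 and 8.11 FPKM in cKO, with cKO replicate 2 highest as for Tm7sf2. Dhcr7, which reduces 7-dehydrocholesterol in the last step of one route, averaged 6.10 and 5.31 FPKM. Msmo1, a methylsterol oxidase, averaged 11.2 and 10.7 FPKM, and the demethylase gene Cyp51 7.51 and 7.14 FPKM. WT replicate 1 was the lowest WT library in both genes.

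Among the SREBP control genes, 4 of 5 had a lower mean in cKO and 0 passed. Their score was -0.05, 0.02 and 0.03 in WT and -0.12, -0.15 and -0.15 in cKO, with the smallest SD of the 6 roles in cKO (0.0193). The single genes did not share that closeness. Among the cKO libraries, replicate 2 was lowest for Scap but highest for Insig1, Srebf1 and Srebf2. Scap, the escort (chromosome 9, 110162356 to 110214017), stood at 73.0, 73.2 and 67.1 FPKM in WT and 64.7, 46.1 and 63.4 FPKM in cKO. All of cKO lay below WT, with replicate 2 far below the other cKO libraries (limma adjusted p = 0.777, log2 fold change -0.30 with SE 0.141 and 95% interval -0.64 to 0.03). Without that library the log2 fold change was -0.15. Insig1, the retention protein and itself an SREBP target (chromosome 5, 28276410 to 28283660), stood at 43.1, 50.2 and 48.2 FPKM in WT and 39.3, 42.7 and 39.9 FPKM in cKO. WT replicate 1 came within 1 FPKM of cKO replicate 2 (limma adjusted p = 0.773, log2 fold change -0.21 with SE 0.0909 and 95% interval -0.42 to 0.01).

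Srebf2, the gene of SREBP2, stood at 17.7, 21.0 and 19.6 FPKM in WT and 16.1, 18.1 and 16.1 FPKM in cKO, with cKO replicate 2 inside the WT range (limma adjusted p = 0.791, log2 fold change -0.20 with SE 0.0986). Srebf1, whose products mainly drive fatty acid genes, averaged 13.7 ± 0.913 and 13.5 ± 1.15 FPKM (SD, n = 3 each), and the 95% interval of its log2 fold change was -0.25 to 0.21. Insig2, the second INSIG gene, averaged 4.30 and 4.43 FPKM, below Insig1 in every library.

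**Figure D2:**
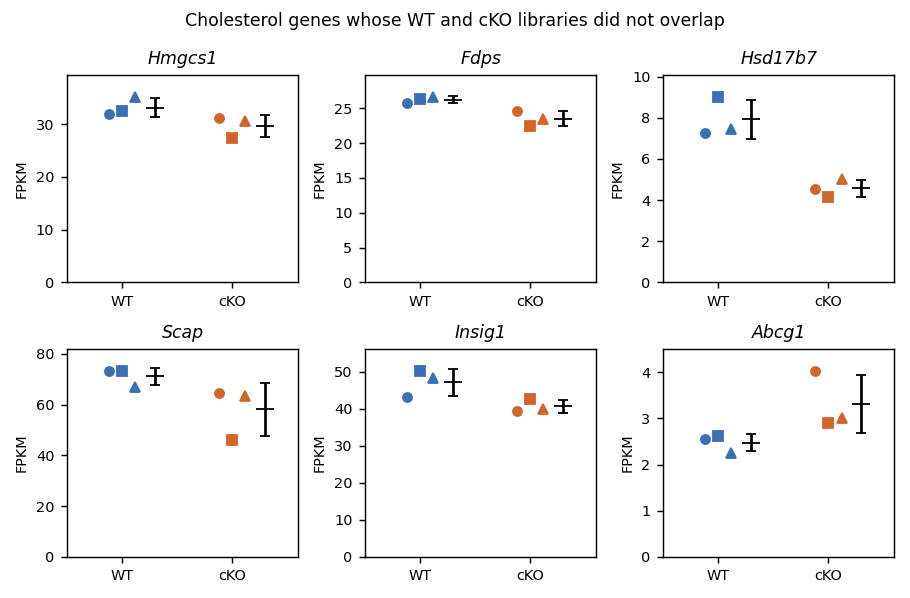
FPKM of the 6 members whose WT (blue) and cKO (orange) libraries did not overlap, 1 point for each library, with the mean and SD beside them in black and each axis from 0. Hsd17b7 shows the widest relative gap, and Hmgcs1, Fdps and Insig1 a gap that is small beside their level.

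Of the uptake and handling genes 3 of 5 had a higher mean in cKO and 0 passed. Soat1, which esterifies cholesterol for storage, was the most abundant member by FPKM (chromosome 1, 156255678 to 156301898, minus strand). It stood at 68.7, 113 and 73.7 FPKM in WT and 79.4, 57.3 and 89.0 FPKM in cKO. The spread within each group exceeded the difference of the means (limma adjusted p = 0.899, log2 fold change -0.16 with SE 0.232 and 95% interval -0.71 to 0.39), and the log2 fold change was 0.06 without WT replicate 2 and 0.02 without cKO replicate 2. Scarb1, the receptor that takes cholesteryl ester from HDL, stood at 35.6, 31.2 and 32.2 FPKM in WT and 33.9, 33.3 and 33.4 FPKM in cKO, whose libraries lay within the WT range. The 95% interval of its log2 fold change was -0.17 to 0.22, among the narrowest of the members.

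Npc2, which hands cholesterol to NPC1 inside the lysosome, stood at 34.4, 32.8 and 38.1 FPKM in WT and 49.0, 36.4 and 38.5 FPKM in cKO, with cKO replicate 1 above the rest (limma adjusted p = 0.807, log2 fold change 0.22 with SE 0.13). When that library was left out its log2 fold change was 0.09. Npc1, its membrane partner, averaged 16.7 and 17.9 FPKM. The gene overlaps Rmc1 on the other strand over 8982 bases of its span, at 7.64 to 8.98 FPKM for Rmc1. Stard4, a sterol carrier and SREBP target, averaged 7.06 and 6.96 FPKM, with cKO replicate 2 lowest at 5.40 and replicate 3 highest at 8.72.

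Of the export genes only Abcg1 did not overlap between the groups. Abcg1 (chromosome 17, 31276668 to 31336958) stood at 2.54, 2.61 and 2.26 FPKM in WT and 4.02, 2.91 and 3.01 FPKM in cKO. The lowest cKO library was near the highest WT library, and replicate 1 stood apart (limma adjusted p = 0.773, log2 fold change 0.31 with SE 0.139 and 95% interval -0.02 to 0.63). Without cKO replicate 1 the log2 fold change was 0.19. Abca1, the exporter to lipid-poor apolipoprotein, went the other way, at 17.7, 20.9 and 17.5 FPKM in WT and 17.1, 11.8 and 19.2 FPKM in cKO. Its low mean in cKO came from replicate 2, and without it the log2 fold change was -0.04 against -0.23. Nr1h2, the gene of LXRβ, averaged 22.9 ± 0.924 and 25.3 ± 1.74 FPKM (SD, n = 3 each). Nr1h3, the gene of LXRα, averaged 0.399 and 0.521 FPKM on 11 to 27 reads and was not tested under the filter, so that Nr1h2 was the more abundant LXR gene in every library.

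**Figure D3:**
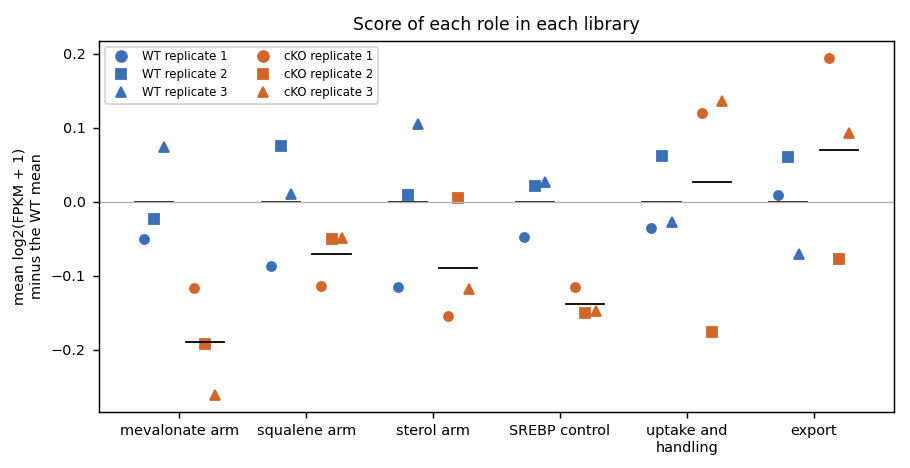
Mean over the tested genes of a role of log2(FPKM + 1) minus the WT mean, 1 point for each library, with WT in blue, cKO in orange and the group mean as a bar. The mevalonate and SREBP control scores do not overlap between the groups, and in uptake and handling and in export cKO replicate 2 lies below the other cKO libraries.

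Markers of other cells differed beside these values, though 0 of them passed the adjusted limma threshold. All 14 macrophage markers had a higher mean in cKO, 11 of them at an unadjusted p under 0.05 (3.64% of all genes tested), with a summed level of 43.5 to 69.6 FPKM in WT and 96.4 to 255 FPKM in cKO. The macrophage sum was highest in cKO replicate 1, ahead of replicate 3 at 146 and replicate 2 at 96.4. Among the cKO libraries, replicate 1 was also highest for Abcg1 and Npc2, but replicate 3 was highest for Abca1 and Soat1. Interferon response markers had a higher mean in 7 of 7, with sums of 11.4 to 13.85 FPKM in WT against 297, 27.35 and 54.4 FPKM in cKO. Steroidogenic markers, of which 2 of 6 were tested, summed to 124 to 188 FPKM in WT and 30.1 to 60.4 FPKM in cKO. That fall was the fall of Hsd3b1, which averaged 139 and 38.1 FPKM, and was not shared by the list. Star, the other tested marker, had a higher mean in cKO (5.19 and 5.94 FPKM). Of the untested ones, below the filter of 1 FPKM, Cyp11a1 and Insl3 had a higher mean in cKO and Cyp17a1 and Lhcgr a lower one. Granulosa markers had a lower mean in 9 of 11 tested, summing to 809 to 915 FPKM in WT and 684 to 804 FPKM in cKO. At an unadjusted limma p under 0.05, 6 of them were lower (2.7% of all genes tested) and 1 was higher (3.64%). The higher one was Inhbb, with means of 54.1 FPKM in WT and 76.4 FPKM in cKO. Proliferation markers had a lower mean in 6 of 6, at 160 to 199.9 FPKM in WT and 165 to 167 FPKM in cKO. Endothelial markers had a higher mean in 4 of 4, of which 2 did not overlap (6.37% of all genes tested were higher without overlap), and summed to 80.2 to 83.3 FPKM in WT and 86.4 to 98.95 FPKM in cKO. The part of these cells in the cholesterol values was not tested, and in whole ovaries fewer cells of a type cannot be told apart from less RNA in each. Oocyte markers summed to 2026 to 2225 FPKM over the 6 libraries, with the groups overlapping. Adipocyte markers other than Plin1 were at or near 0, Lep at 0 in every library.

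Genes next to the pathway were read from further lists. Of 15 tested fatty acid and other SREBP targets, 9 had a lower mean, 0 passed, and 5 did not overlap, all lower (5.89% of all genes tested were lower without overlap). At an unadjusted p under 0.05, 2 were lower, against 2.7% of all genes. Elovl6, a fatty acid elongase, stood at 4.76, 5.11 and 5.64 FPKM in WT and 3.83, 2.60 and 4.18 FPKM in cKO (limma adjusted p = 0.761). Acaca, the acetyl-CoA carboxylase of fatty acid synthesis, averaged 6.68 and 4.94 FPKM, and Gpam, which starts glycerolipid synthesis, 32.9 and 26.9 FPKM. Mid1ip1, an activator of that carboxylase, averaged 56.7 and 68.7 FPKM. The list's median log2 fold change was -0.08.

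Of these lists, sterol use for steroids held the largest difference. Hsd3b1, which makes progesterone from pregnenolone, stood at 115, 181 and 121 FPKM in WT and 39.3, 23.3 and 51.6 FPKM in cKO (limma adjusted p = 0.37, log2 fold change -1.88 with SE 0.301). Cyp19a1, the aromatase, averaged 2.16 and 0.773 FPKM, and Hsd17b1, which makes estradiol, 23.5 and 16.1 FPKM. Fdxr, the reductase that passes electrons to the ferredoxin of mitochondrial P450 enzymes, averaged 20.3 and 17.7 FPKM. Of 8 tested genes of this list 6 had a lower mean and 0 passed. Star, which carries cholesterol into mitochondria, averaged 5.19 and 5.94 FPKM.

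In the other lists 0 genes passed as well. The LXR partners and targets had a lower mean in 7 of 10 tested, with Smpdl3a, an LXR-induced phosphodiesterase, at 9.85 and 12.3 FPKM and the lipid transfer gene Pltp at 20.1 and 16.7 FPKM. Abca5 averaged 3.76 and 2.85 FPKM and the corepressor gene Ncor1 22.6 and 20.6 FPKM. Lysosomal and transfer proteins were lower in 9 of 14, with the lipid carrier gene Stard5 at 9.75 and 11.1 FPKM, Osbpl5 at 40.7 and 36.9 FPKM, Gramd1b at 3.99 and 3.33 FPKM and Vps13c at 3.66 and 3.08 FPKM.

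SREBP processing genes were lower in 4 of 9, with a median log2 fold change of 0.00. Mbtps1, the site-1 protease that cuts SREBP, stood at 76.5 ± 1.27 and 69.6 ± 6.56 FPKM (SD, n = 3 each). The ubiquitin ligase gene Rnf145 averaged 11.9 and 12.8 FPKM, and Erlin1 and Erlin2, whose products bind the SCAP complex, 10.4 and 9.61 and 26.6 and 25.4 FPKM. Of the receptor and lipoprotein genes 4 of 6 were lower, with Vldlr at 4.11 and 3.45 FPKM, the RNA-binding vigilin gene Hdlbp at 102 and 93.1 FPKM, Lcat at 1.28 and 1.54 FPKM and the scavenger receptor gene Cd36 at 4.79 and 5.37 FPKM.

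**Figure D4:**
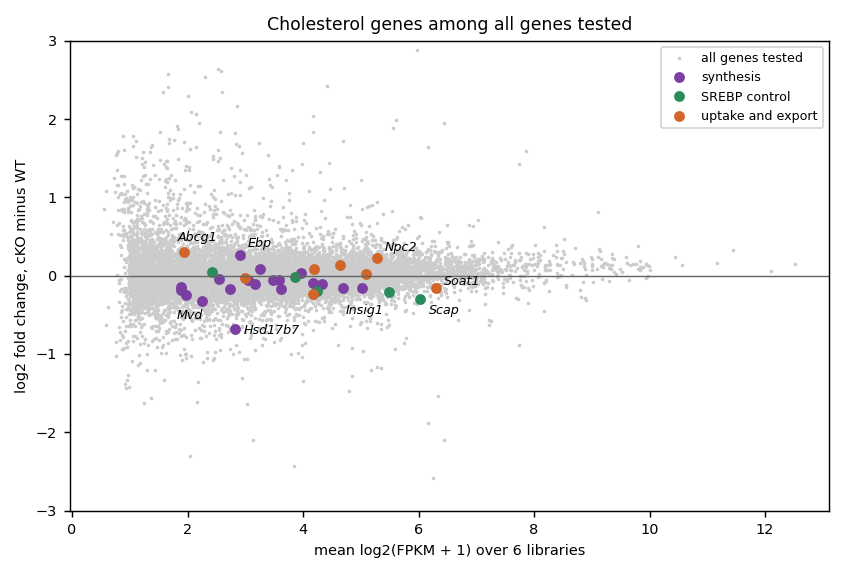
Log2 fold change (cKO minus WT) against the mean log2(FPKM + 1) over 6 libraries for all genes tested (grey), with synthesis genes in purple, SREBP control genes in green and uptake and export genes in orange. The members lie between -0.68 (Hsd17b7) and 0.31 (Abcg1), inside the cloud of all genes.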

How the data were processed

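RNA sequencing of 3 WT and 3 cKO ovary samples was analysed from 1 table. Its values are FPKM as deposited by the authors, made with HISAT2 2.0.5 per the submitters' processing notes, which name mm10 and GRCm39. The table's chromosome accessions are those of GRCm39. The sources used here give no counter, annotation release or strandedness. FPKM times gene length gave whole reads (100% of values within 0.01).

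The 33 members and all lists were chosen with earlier results of these data known. FPKM were transformed as log2(FPKM + 1), which understates changes of low genes. The 14714 genes that averaged 1 FPKM or more were tested with limma 3.58.1 in R 4.3.3 (lmFit, eBayes with trend, two-sided), Benjamini-Hochberg adjusted over all of them, threshold 0.05. The script was checked on simulated data. Per-library values were given for members without overlap or with an unadjusted p under 0.05, the 3 most abundant and the 3 nearest to these bounds, and for others chosen after their values were seen. Of each further list up to 4 genes with the smallest p were named, and Star after its values were seen. Alternatives were another pseudocount, other filters, a common total, quantile normalization, limma-voom, the replicate block and each library left out.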

Additional observations from a re-analysis of the deposited data

How the results depend on the processing

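In all 13 alternatives 0 members passed, as in the main comparison (smallest adjusted p of a member 0.301, Hsd17b7 with limma-voom on recovered reads). Over all genes, 3 passed, against 0 with no filter, 0 with limma-voom, 0 with the replicate block and 0 to 2 with 1 library left out. The synthesis minus uptake and export difference stayed between -0.28 and -0.11, but the uptake and export mean alone went from 0.04 to -0.02 with a common total and to -0.01 without cKO replicate 1. A common total moved the median of all genes to -0.06. Members with an unadjusted p under 0.05 numbered 1 to 4 lower and 0 to 1 higher. Over all genes, in either direction, 487 (without WT replicate 2) to 1053 (without cKO replicate 3) of 14714 were under it. With no filter 1678 of 32693 were, and with the filter at 5 FPKM 559 of 9648.

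Uncalled members changed sign as follows, the cause not tested. With a common total the log2 fold change of Fdft1 was -0.022, of Insig2 -0.011 and of Scarb1 -0.039, and with quantile normalization that of Scarb1 was -0.0065. With each library left out in turn the lowest and highest values were -0.33 and 0.079 for Acat2, -0.20 and 0.031 for Cyp51, -0.37 and 0.17 for Tm7sf2, -0.24 and 0.072 for Nsdhl, -0.14 and 0.23 for Sc5d, -0.060 and 0.049 for Srebf1, -0.021 and 0.13 for Insig2, -0.014 and 0.079 for Scarb1, -0.19 and 0.11 for Stard4, and -0.30 and 0.056 for Soat1.

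The replicate numbers gave no sign of pairing: deviations of same-numbered libraries correlated at 0.18, -0.08 and -0.06, other pairs at -0.23 to 0.23. The replicate block changed no member's call. Depth limits Nr1h3 most, at 11 to 27 reads.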

Other observations

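Within each group the libraries fell in the same order for Soat1, Hsd17b7 and Hsd3b1, an order seen only after the values were read and not tested. In WT replicate 1 was lowest and replicate 2 highest, with Soat1 at 68.7, 73.7 and 113 FPKM, Hsd17b7 at 7.28, 7.45 and 9.01 FPKM and Hsd3b1 at 115, 121 and 181 FPKM in replicates 1, 3 and 2. In cKO replicate 2 was lowest and replicate 3 highest, with Soat1 at 57.3, 79.4 and 89.0 FPKM, Hsd17b7 at 4.16, 4.54 and 5.01 FPKM and Hsd3b1 at 23.3, 39.3 and 51.6 FPKM in replicates 2, 1 and 3. Between the groups the genes differed: Soat1 overlapped, and Hsd17b7 and Hsd3b1 did not. The order was not particular to them, as Nr5a2, Top2a and Gpam of the granulosa, proliferation and fatty acid lists shared it. Nr5a2 stood at 43.9, 49.9 and 56.4 FPKM in WT replicates 1, 3 and 2. In cKO replicates 2, 1 and 3 it stood at 26.3, 33.8 and 36.8 FPKM. The share of all genes with this order was not counted, and cKO replicate 2 was the highest or lowest of its group in 78% of them.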
